A study of Mus musculus with 22 samples.

Results

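The response of the mouse pancreas to caerulein was examined in animals with intact Ehmt2, which encodes the histone methyltransferase also known as G9a. The comparison took 6 of the 22 mice of the series, chosen by their labels alone, namely the 2 untreated and the 4 caerulein-treated young adults that carried Pdx1-Cre and wild type Ehmt2 (Ehmt2+/+). All 6 were on a C57Bl/6 background, and the Cre transgene, which is active in the pancreatic epithelium from early development, was shared by both groups and had no floxed allele to act on. By the study's methods, untreated young adults were taken at 4 weeks (4 to 5 weeks elsewhere in its text), and pancreatitis was induced in 4-week-old animals by 8 hourly injections of 50 µg/kg caerulein after a 12 h fast, with food returned after the first dose and tissue taken 18 h after it. No fast or injection was recorded for the untreated mice, so that fasting, injection, cohort and any small difference in age cannot be told apart from caerulein.

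Caerulein is an analog of cholecystokinin, the gut hormone that makes acinar cells release their zymogen granules. At supramaximal doses secretion is blocked, digestive zymogens are activated inside the acinar cell, and a sterile and usually reversible inflammation follows, in which monocytes and neutrophils enter the tissue and surviving acinar cells lower their digestive enzymes and take on features of duct cells. Acinar cells make most of the RNA of a healthy pancreas, and a small set of enzyme genes holds most of it.

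The libraries held 23602527 and 23993243 counts in the untreated mice and 32047194 to 40287424 in the treated mice, over 13927 genes. Genes of digestive enzymes took 66.7% and 54.5% of all counts in untreated mice 1 and 2, and 37.2%, 39.7%, 46.1% and 28.3% in treated mice 1 to 4. The groups did not overlap (60.6% ± 8.69 (SD, n = 2) against 37.8% ± 7.36 (SD, n = 4)), and the exact two-sided permutation p was 0.133, the smallest this design allows. A further 11.9% to 39.6% of counts lay on 3 genes that collect ribosomal RNA (CT010467.1, Gm42418 and AY036118). Levels are given as CPM (counts per 1000000 counts) after TMM scaling, which equalizes the bulk of genes between libraries, so that a rise or fall is relative to the typical gene (median log2 difference over all genes 0.08). Scaled by library totals alone the median gene would be 1.55 higher on the log2 scale in the treated mice, and 10188 genes would be called higher against 154 lower. In such whole-tissue libraries, fewer cells of a type and less RNA per cell cannot be told apart.

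**Figure D1:**
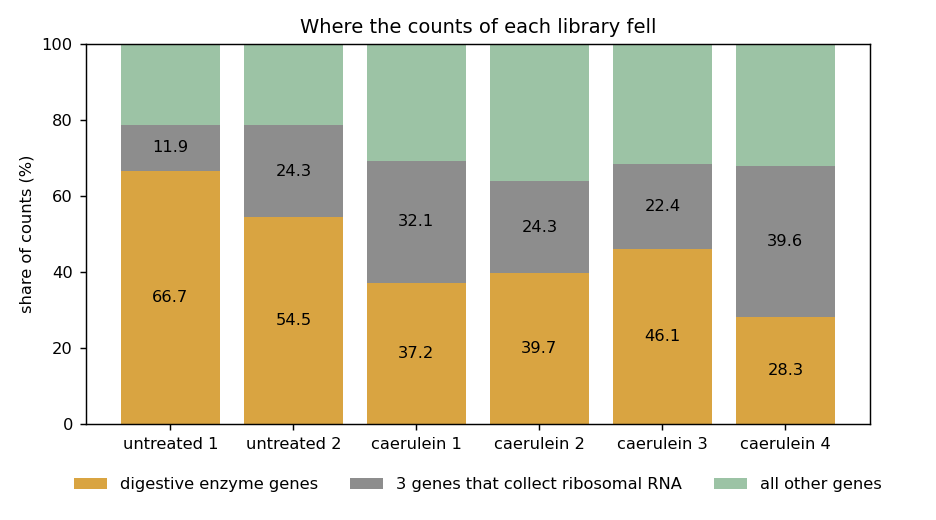
Share of the counts of each library (%, vertical axis) on digestive enzyme genes, on the 3 genes that collect ribosomal RNA and on all other genes, for untreated mice 1 and 2 and caerulein-treated mice 1 to 4. Digestive enzyme genes took 54.5% and 66.7% in the untreated mice and 28.3% to 46.1% in the treated mice.

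Some differences among the 6 mice were not those of treatment. The transcript Xist, made from the inactive X chromosome of females, stood at 68.4 CPM in untreated mouse 1, 0.224 in untreated mouse 2 and 76.2 to 207 in the treated mice, so that 1 untreated mouse was male by this measure and the other 5 were female. Summed levels of 17 T and NK cell genes were 1.94 and 51.3 CPM in untreated mice 1 and 2 and 106, 6.73, 3.01 and 132 CPM in treated mice 1 to 4, which sets untreated mouse 2 and treated mice 1 and 4 apart. Mesothelial genes (6 tested) summed to 48 and 30.7 CPM in treated mice 2 and 3, against 3.11 to 12.4 CPM in the other 4 mice. The part of these differences in the results below was not tested. Where untreated mouse 1 is left out below, the male untreated mouse 2 alone stands against 4 females. Sex and treatment cannot be told apart there.

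Ehmt2 (ENSMUSG00000013787.15, chr17:34898469-34914052 on GRCm38) did not pass the test between the groups, at 41.7 and 29.7 CPM untreated and 34.3, 37.4, 39.7 and 38.0 CPM after caerulein. The groups overlapped, and the log2 fold change was 0.07 ± 0.19 (SE; edgeR quasi-likelihood test, adjusted p = 0.832). Its partner Ehmt1 was likewise not called (log2 fold change 0.07 ± 0.19, adjusted p = 0.807), nor was any of the 13 tested genes of H3K9 methylation (1 at an unadjusted p under 0.05 and 0 called in DESeq2).

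Across the transcriptome, 2531 of 13927 genes (18.2%) passed an adjusted p under 0.1 with a log2 difference of at least 1, of which 1203 (8.64%) rose and 1328 (9.54%) fell. Levels of the treated and untreated mice did not overlap for 1202 of the genes that rose and 1321 of those that fell, as was so for 46.96% of all genes tested. Changes of at least 3 on the log2 scale were counted for 173 rising and 86 falling genes. Much rested on untreated mouse 1, without which 1412 genes passed (546 higher, 866 lower), of which 1306 were among the 2531 with the same direction. Leaving out any other mouse gave 2165 to 2601 genes. Without treated mice 1 and 4, which had the high lymphocyte genes, 2954 genes passed, and without treated mice 2 and 3, which had the high mesothelial genes, 2506.

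**Figure D2:**
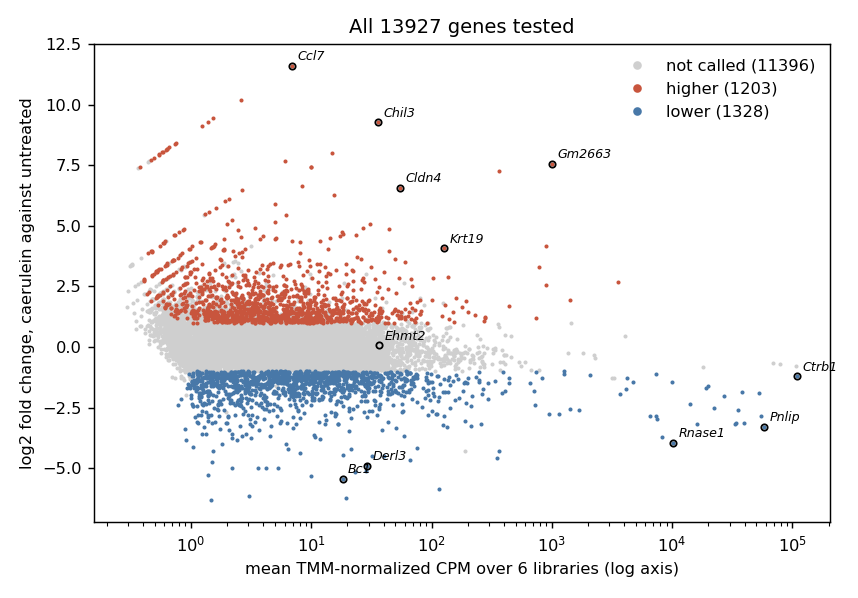
Log2 fold change of caerulein-treated against untreated mice (vertical axis) by mean TMM-normalized CPM over the 6 libraries (horizontal log axis) for all 13927 genes tested, with the 1203 called higher and 1328 called lower coloured. Genes without any untreated count take fitted values that depend on the prior count.

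The 10 largest rises at 10 CPM or more, gene models left out, were those of Ccl7, Chil3, Saa3, Sprr1a, Timp1, Ccl2, Cldn4, Lcn2, Lgals3 and Ccl6. Cldn4 (ENSMUSG00000047501.3, chr5:134945119-134946934), a tight junction claudin of duct cells that acinar cells gain in injury, stood at 0.737 and 0.969 CPM in the untreated mice and at 55.5, 119, 98.9 and 53.3 CPM in the treated mice. The lowest treated mouse lay far above the highest untreated one, and Cldn4 rose 94.6-fold (log2 6.56 ± 0.57, adjusted p = 0.00131). Ccl2 (chr11:82035571-82037453), the main attractant of CCR2-bearing monocytes, had 3 counts over both untreated libraries and 10.7, 16.1, 13.8 and 9.49 CPM after caerulein, a ratio of 104 with a 95% exact counting interval of 35.4 to 503 (adjusted p = 0.000784). Its neighbour Ccl7 (chr11:82045712-82047525), a related monocyte chemokine, had no untreated count and 7.96, 15.1, 12.1 and 6.17 CPM in the treated mice, at least 86.5-fold higher when the floor is 3 counts over the untreated group (adjusted p = 0.00267). Every treated mouse thus had both chemokines, and the order of the treated mice was the same for both, with mouse 2 highest and mouse 4 lowest.

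Lcn2, an iron-binding protein of innate defence, was at 0.461 and 0.149 CPM untreated and at 15.1, 30.1, 33.6 and 13.3 CPM after caerulein (log2 6.29 ± 0.73, adjusted p = 0.00267). Lgals3, a galactose-binding lectin of macrophages and injured epithelium, went from 1.01 and 1.64 CPM to 41.2, 62.5, 52.5 and 26.1 CPM (log2 5.08 ± 0.50, adjusted p = 0.00174). For both genes each treated mouse exceeded each untreated one. Chil3, a chitinase-like lectin of alternatively activated macrophages, had 2 counts in the untreated group and 30.5, 104, 63.9 and 15.7 CPM after caerulein (ratio 697, interval 193 to 5753, adjusted p = 0.00642), with 26.9% of its 50-base words also found in Chil4 and a further copy. Timp1, a secreted inhibitor of matrix metalloproteases, reached 8.24, 27.1, 17.5 and 6.31 CPM from 2 untreated counts (ratio 191, interval 52.9 to 1578, adjusted p = 0.00699). Ccl6 rose 29.7-fold (adjusted p = 0.00861). These calls held without any 1 mouse, with adjusted p of at most 0.0774, where a lone untreated mouse is assumed to vary like the treated ones.

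Within the treated group the size of the rise differed widely for 2 genes of this set. Saa3, an acute phase serum amyloid made locally, stood at 2.19, 70.2, 15.9 and 1.12 CPM against 2 untreated counts, and Sprr1a, a cornified envelope protein induced in injured epithelium, at 5.20, 28.7, 22.5 and 3.34 CPM against 2 untreated counts. Treated mice 2 and 3 were the high ones for both genes, as they were for the mesothelial genes. Saa3 was called (ratio 313, interval 86.7 to 2587, adjusted p = 0.0882), but not without untreated mouse 1, untreated mouse 2 or treated mouse 3 (adjusted p up to 0.286). Sprr1a (ratio 195, interval 54.0 to 1612, adjusted p = 0.0198) was not called without untreated mouse 1 or 2 (adjusted p up to 0.133).

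**Figure D3:**
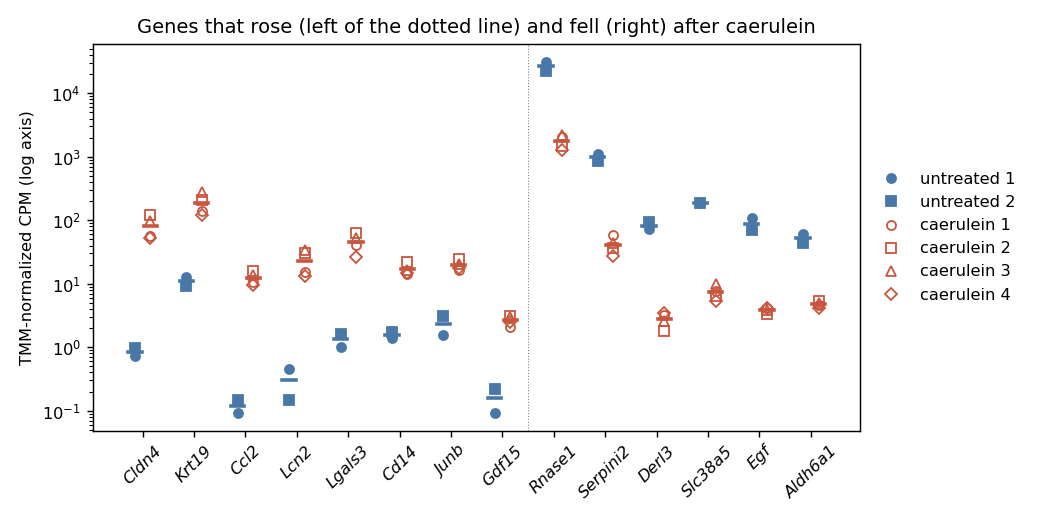
TMM-normalized CPM (log axis) of selected genes that rose or fell, in untreated mice 1 and 2 and caerulein-treated mice 1 to 4. Each point is 1 mouse. The selection is not the set of largest changes and leaves out Saa3 and Sprr1a, which differed widely among the treated mice. Cldn4 lay at 0.737 and 0.969 CPM untreated and 53.3 to 119 after caerulein, and Derl3 at 71.9 and 92.7 against 1.81 to 3.48.

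The proximal promoters of 3 rising epithelial genes are shown because each carries the letters bound by AP-1, the dimer of Fos and Jun proteins whose genes also rose (below). The sequences are those of RefSeq on GRCm38.p6, from 250 bases before to 50 after the start, with the motif TGANTCA, which is palindromic and reads the same on both strands, in capitals. Cldn4 (minus strand, chr5:134946885-134947184) and Sprr1a (minus strand, chr3:92485832-92486131) hold it at 2 places, and Mmp7 (plus strand, chr9:7691840-7692139), a matrix protease of metaplastic ducts, at 1.
Cldn4: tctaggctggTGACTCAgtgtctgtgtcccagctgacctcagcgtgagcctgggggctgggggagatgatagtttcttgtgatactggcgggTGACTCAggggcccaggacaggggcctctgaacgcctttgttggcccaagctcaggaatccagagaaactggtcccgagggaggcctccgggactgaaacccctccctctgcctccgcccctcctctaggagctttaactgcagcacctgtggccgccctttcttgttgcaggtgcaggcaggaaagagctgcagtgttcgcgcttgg
Sprr1a: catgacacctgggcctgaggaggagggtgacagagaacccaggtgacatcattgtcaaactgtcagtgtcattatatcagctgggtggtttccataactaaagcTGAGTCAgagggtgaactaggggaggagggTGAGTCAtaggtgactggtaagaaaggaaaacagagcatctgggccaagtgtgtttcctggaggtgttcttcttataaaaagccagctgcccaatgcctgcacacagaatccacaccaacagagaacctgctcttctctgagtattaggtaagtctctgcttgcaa
Mmp7: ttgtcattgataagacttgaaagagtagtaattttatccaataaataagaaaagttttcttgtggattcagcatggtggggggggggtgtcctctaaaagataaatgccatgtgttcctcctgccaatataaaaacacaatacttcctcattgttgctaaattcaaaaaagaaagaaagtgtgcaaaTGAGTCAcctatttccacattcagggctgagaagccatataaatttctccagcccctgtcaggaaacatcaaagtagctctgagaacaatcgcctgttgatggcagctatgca
The motif stood in 12.0% of the promoters of genes that rose (101 of 840), in 5.12% of those that fell (48 of 938) and in 4.38% of those not called. Over all tested genes with a promoter it was 5.09% (509 of 10004). Among all 32851 promoters, of tested and untested genes, it was 7.81%. A match is a description of letters and not of binding.

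The 10 largest falls by the same rule were those of Bc1, Vmn2r8, Tmed11, Hamp2, Fat3, Derl3, Slc38a5, Serpini2, Egf and Aldh1l2. Derl3 (ENSMUSG00000009092.5, chr10:75893413-75895941), an endoplasmic reticulum (ER) membrane protein that helps remove misfolded proteins, was at 71.9 and 92.7 CPM in the untreated mice and at 3.21, 1.81, 2.59 and 3.48 CPM in the treated mice. It fell 29.7-fold (log2 -4.89 ± 0.28, adjusted p = 0.000723), and the treated mice lay close to each other. Slc38a5 (chrX:8271133-8280179), a glutamine and glycine carrier, fell from 185 and 184 CPM to 7.65, 6.48, 9.73 and 5.31 CPM (log2 -4.66 ± 0.26). Aldh1l2 (chr10:83487450-83534140), a mitochondrial enzyme of the folate cycle, fell from 124 and 98.9 CPM to 4.58, 5.18, 5.44 and 4.42 CPM (log2 -4.50 ± 0.19, adjusted p = 0.000295). Egf (chr3:129677565-129755316), the founding ligand of the EGF receptor, fell from 107 and 69.1 CPM to 4.09, 3.39, 3.84 and 4.19 CPM (log2 -4.50 ± 0.22, adjusted p = 0.000469). Serpini2, a serine protease inhibitor of acinar cells, fell from 1094 and 854 CPM to 57.9, 36.1, 43.5 and 27.2 CPM (log2 -4.56 ± 0.33). In none of these genes did a treated mouse come near an untreated one, and no call was lost without any 1 mouse (adjusted p at most 0.0115).

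Tmed11, a member of a family of cargo receptors between ER and Golgi, fell from 68.0 and 63.5 CPM to 1.28 to 2.54 CPM. The adjoining Vmn2r8, annotated as a vomeronasal receptor, fell from 25.1 and 31.7 CPM to 0.387 to 1.03 CPM. The exons of Vmn2r8 cover 23.2% of the exon bases of Tmed11. Both genes are annotated on the minus strand, so reads of these genes cannot be fully told apart. Hamp2, a hepcidin paralog, fell 34.4-fold and Fat3, a large cadherin, 31.9-fold. The small noncoding RNA Bc1 went from 23.1 and 81.6 CPM to 0.921 to 1.92 CPM, though it shares 31.1% of its 50-base words with other genes.

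Digestive enzymes fell as a group but not together. Of 35 tested genes, 22 fell and 2 rose, against 9.54% and 8.64% of all genes, with a median log2 fold change of -1.84 (-0.38 on library totals alone). Without untreated mouse 1, 15 fell. Because enzymes hold much of each library, they are also given as shares of all counts, including the 3 genes that collect ribosomal RNA. Pancreatic lipase (Pnlip) held 7.80% and 6.62% of counts in the untreated mice and 2.23%, 1.88%, 2.47% and 1.66% in the treated mice. Chymotrypsinogen B (Ctrb1) held 9.19% and 8.28% untreated and 8.41%, 11.9%, 13.8% and 8.29% after caerulein. The Pnlip groups did not overlap, whereas the Ctrb1 groups did, and treated mice 2 and 3 had a larger share of Ctrb1 than either untreated mouse. The 3 genes that collect ribosomal RNA took 11.9% and 24.3% of counts untreated and 32.1%, 24.3%, 22.4% and 39.6% after caerulein. They lower the shares of treated mice 4 and 1 most, so the overlap of the Ctrb1 groups holds only for totals that include them. With these 3 genes left out of the totals, the share of Ctrb1 was higher in every treated mouse than in either untreated mouse.

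Set against Ctrb1 within the same library, which is free of any scaling, the ratio of Pnlip went from 0.85 and 0.80 to 0.266, 0.157, 0.180 and 0.201, a 4.10-fold lower mean. By the same measure the ribonuclease Rnase1 was 6.51-fold lower, colipase (Clps) 5.46-fold, carboxyl ester lipase (Cel) 3.83-fold and carboxypeptidase A1 (Cpa1) 2.61-fold. Anionic trypsinogen (Prss2) was 1.56-fold lower. On the CPM scale Rnase1 fell most of these (log2 -3.94 ± 0.32, adjusted p = 0.0011) and Ctrb1 least (log2 -1.20 ± 0.33, adjusted p = 0.0446). Ctrb1 lay 0.28 higher on library totals alone, and its call was lost without untreated mouse 1 or treated mouse 2 (adjusted p up to 0.259). Each treated mouse thus had less RNA of the lipid-digesting enzymes per RNA of chymotrypsinogen B than either untreated mouse. The amylase gene Amy2a5 was at 8089 and 2414 CPM untreated and 2731, 2937, 2626 and 343 CPM after caerulein and was not called. It shares 53.5% of its 50-base words with its gene copies, so reads of these could be split.

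A pair of trypsinogen-like genes moved the other way. Gm2663 (ENSMUSG00000096525.2, chr6:40995830-40999479) rose from 11.5 and 4.4 CPM to 1883, 1461, 1428 and 1191 CPM (log2 7.56 ± 0.59, adjusted p = 0.00095). The nearby 1810009J06Rik (ENSMUSG00000094808.2, chr6:40964754-40968435) rose from 2.40 and 4.62 CPM to 753, 562, 425 and 442 CPM (log2 7.27 ± 0.52, adjusted p = 0.000808). The lowest treated mouse lay far above the highest untreated one in either gene. They share 81.5% and more of their 50-base words with each other, so they may be 1 signal rather than separate ones.

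Granule proteins and the machinery that folds them were lower too. Of 20 tested granule and inhibitor genes 13 fell (8 without untreated mouse 1), with a median log2 fold change of -1.45 that turns to 0.03 on library totals alone. Aquaporin 8 (Aqp8) fell from 15.3 and 20.4 CPM to 1.47, 1.43, 2.31 and 1.83 CPM (log2 -3.34 ± 0.25, adjusted p = 0.000829), and the granule membrane protein Cuzd1 fell 6.87-fold. The cholecystokinin receptor Cckar, through which caerulein acts, went from 494 and 347 CPM to 191, 175, 206 and 81.1 CPM (log2 -1.36 ± 0.38, adjusted p = 0.0436). Its groups did not overlap, but it lay 0.10 higher on library totals alone and was not called without untreated mouse 1 (adjusted p = 0.248). Of 40 genes of ER folding and translocation 30 fell and none rose, with a median of -1.39 (0.05 on library totals alone), and 25 or more fell without any 1 mouse. The oxidase Ero1lb, which forms disulfide bonds, fell from 442 and 476 CPM to 73.0, 45.4, 59.1 and 47.2 CPM (log2 -3.03 ± 0.25). Sec11c, the catalytic subunit of signal peptidase, fell 6.35-fold, and Atf6, a sensor of unfolded proteins, 3.20-fold. Their treated and untreated levels did not overlap. The chaperone Canx was not called (95.9 and 107 CPM untreated, 87.6 to 116 CPM after caerulein).

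Of 14 transcription factors and cofactors that define acinar identity, 3 fell and none rose (5 fell without treated mouse 3), with a median of -0.31 that turns to 1.16 on library totals alone. Bhlha15 (Mist1), which sets up the secretory granule apparatus, fell from 248 and 160 CPM to 46.9, 36.2, 60.6 and 34.0 CPM (log2 -2.20 ± 0.30, adjusted p = 0.00455). Rbpjl, the acinar partner of Ptf1a, fell from 117 and 144 CPM to 40.0, 37.0, 48.5 and 44.0 CPM (log2 -1.62 ± 0.19, adjusted p = 0.0028). For both, every treated mouse lay below both untreated mice. Ptf1a itself was at 18.7 and 13.0 CPM untreated and 17.0 to 27.1 CPM after caerulein (adjusted p = 0.203), and 40.4% of its exon bases lie under an antisense gene. Nr5a2, a nuclear receptor of acinar cells, was at 32.6 and 32.6 CPM against 26.6 to 31.2 CPM (adjusted p = 0.48). Xbp1, a driver of ER expansion, was at 374 and 271 CPM against 325 to 559 CPM (adjusted p = 0.279).

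Genes that feed protein synthesis fell as well. Of 11 genes of amino acid supply 7 fell and 1 rose, with a median of -1.15 (0.33 on library totals alone). Gamt and Gatm, which make creatine, fell 10.1-fold and 6.74-fold. Breakdown of branched-chain amino acids and propionate was lower in 14 of 18 genes, with a median of -2.0 that stays below 0 on library totals alone (-0.52), and 13 or more fell without any 1 mouse. Aldh6a1, a dehydrogenase of valine breakdown, fell from 61.0 and 43.7 CPM to 4.63, 5.36, 5.04 and 4.17 CPM (log2 -3.45 ± 0.19, adjusted p = 0.000723). Pcca, a propionyl-CoA carboxylase subunit, fell 6.93-fold and Acadsb, an acyl-CoA dehydrogenase, 5.93-fold. Treated mice differed little among themselves in these genes. Of 75 genes of oxidative phosphorylation 31 fell and none rose (18 without untreated mouse 1), with a median of -0.92 that turns to 0.53 on library totals alone. None of 85 cytosolic ribosomal protein genes was called in edgeR (median -0.39), with 14 at an unadjusted p under 0.05 and 1 called in DESeq2. Rps25 (log2 -0.98) and Rpl32 (log2 -0.93) were among those with an adjusted p under 0.1 but a change below 1.

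Stress programmes were split. Among 23 genes of the integrated stress response, which slows translation and turns on Atf4 targets, 4 rose and 9 fell. Atf3, a stress-induced repressor, rose from 0 and 0.447 CPM to 5.18, 7.68, 6.90 and 3.64 CPM (log2 4.58 ± 0.78, adjusted p = 0.00886). Nupr1, a chromatin protein first known from pancreatitis, rose from 514 and 483 CPM to 1866, 2168, 1952 and 1595 CPM (log2 1.93 ± 0.25, adjusted p = 0.00415), and Trib3, a pseudokinase that feeds back on Atf4, rose 4.15-fold. The groups did not overlap in these 3 genes. Cth, which makes cysteine, fell 6.10-fold. Atf4 (log2 -0.58 ± 0.19, adjusted p = 0.0706) and Ddit3 (log2 0.70 ± 0.21, adjusted p = 0.0536) were not called. Both passed the adjusted p under 0.1 but changed by less than 1 on the log2 scale.

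Of 22 known targets of p53, 11 rose and 2 fell, with a median of 1.40 against 0.08 over all genes, and 9 or more rose without any 1 mouse. Phlda3, an inhibitor of Akt, rose from 2.12 and 1.64 CPM to 17.1, 23.2, 20.6 and 13.6 CPM (log2 3.31 ± 0.31, adjusted p = 0.0016). Bax, which opens mitochondria in apoptosis, rose from 4.24 and 5.89 CPM to 26.4, 25.7, 27.7 and 18.6 CPM (log2 2.27 ± 0.26, adjusted p = 0.00258). Cdkn1a (p21), which arrests the cell cycle, rose from 4.33 and 13.4 CPM to 32.9, 63.0, 61.0 and 44.2 CPM (log2 2.49 ± 0.51, adjusted p = 0.0169). The stress cytokine Gdf15 rose 16.1-fold. All treated mice exceeded all untreated mice in these 4 genes. Of 16 oxidative stress genes 5 rose and 1 fell (1 rose without untreated mouse 1, and 3 fell without untreated mouse 2), with Srxn1, a sulfiredoxin and Nrf2 target, rising 4.4-fold and the ER peroxiredoxin Prdx4 falling 6.86-fold.

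Immediate early genes encode the transcription factors that cells make within minutes of a stimulus, and 12 of 22 had risen at 18 h after the first dose (median 1.13). Leaving out untreated mouse 1 left 6, and untreated mouse 2, 7. Junb, a subunit of AP-1, rose from 1.57 and 3.05 CPM to 16.2, 24.2, 20.6 and 17.9 CPM (log2 3.08 ± 0.33, adjusted p = 0.00223). Fos, its partner, had 3 untreated counts and 1.28, 3.63, 2.14 and 1.69 CPM after caerulein (ratio 18.6, interval 6.34 to 90.7, adjusted p = 0.0192). Ier3, a regulator of survival, rose 22.3-fold. Myc was at 6.36 and 8.05 CPM untreated and 5.56 to 8.39 CPM treated, and its groups overlapped (adjusted p = 0.911).

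Genes of inflammatory signalling rose among receptors, transducers and secreted products. Of 26 genes of the NF-kB pathway and innate receptors 10 rose and none fell (6 without untreated mouse 1). Relb, a subunit of the non-canonical pathway, rose from 1.11 and 4.62 CPM to 17.3, 17.3, 19.5 and 20.4 CPM (log2 2.67 ± 0.49, adjusted p = 0.0112), and Tnip1, a brake on the pathway, rose 6.48-fold. Myd88, the adaptor of Toll-like and IL-1 receptors, rose 3.34-fold. The groups did not overlap in these genes. Nfkbia, the canonical inhibitor, was not called (2.58 and 9.98 CPM against 12.8 to 17.4 CPM, adjusted p = 0.107).

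Cytokines rose in 6 of 10 tested genes. Tnf had 2 untreated counts and 0.974, 0.987, 0.850 and 0.855 CPM in the treated mice (ratio 11.1, interval 3.04 to 92.7, adjusted p = 0.0227). Il1rn, the natural antagonist of interleukin 1, rose from 0.0922 and 0.298 CPM to 4.51, 12.4, 8.70 and 4.05 CPM (log2 5.16 ± 0.79, adjusted p = 0.00657). Lif, a ligand of the gp130 receptor complex, rose 6.18-fold. Of 18 listed cytokines 8 were not tested, and 4 of the 6 that rose had under 10 counts in each untreated library, so that they passed the filter through the treated group.

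Chemokines rose in 8 of 17 genes (median 2.41), and besides Ccl2, Ccl6 and Ccl7 these included Cxcl16, a membrane-bound ligand of T cells, which rose 7.56-fold, and Ccl9, which rose 23.8-fold. Of 25 listed chemokines 8 were not tested, and 4 of the 8 that rose had under 10 counts in each untreated library. Of 14 genes of the gp130 and STAT3 pathway 5 rose (3 without untreated mouse 1) and 2 fell. Osmr, the receptor of oncostatin M, rose from 2.86 and 3.80 CPM to 8.53, 12.9, 11.3 and 11.5 CPM (log2 1.73 ± 0.25, adjusted p = 0.00546), and Socs3, the feedback inhibitor, rose 3.30-fold. Stat3 itself was not called (28.3 and 27.9 CPM against 29.3 to 43.3 CPM, adjusted p = 0.201). Of 25 interferon response genes 13 rose and none fell (7 without untreated mouse 1), among them Rsad2 (6.63-fold), an antiviral enzyme, Ifih1 (2.88-fold), a sensor of viral RNA, and Usp18 (3.91-fold), which limits the response.

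Acute phase genes rose in 8 of 12 tested members and fell in 1, though only 3 rose without untreated mouse 1 and 5 without untreated mouse 2. Serpina3n, a protease inhibitor, rose from 1.84 and 3.35 CPM to 24.1, 45, 33.3 and 36.0 CPM (log2 3.72 ± 0.38, adjusted p = 0.00194). Pigr, which carries IgA across epithelium, rose 4.58-fold, while Itih4 fell 3.71-fold. The regenerating (Reg) family, secreted lectins long linked to pancreatitis, was divided. Reg1 fell 5.13-fold and Reg3d 4.46-fold, both with non-overlapping groups. Reg3g was called higher (43.7 and 26.7 CPM against 220, 97.4, 150 and 72.9 CPM, adjusted p = 0.0362), but not without either untreated mouse (adjusted p up to 0.175). Reg3b stood at 1050.3 and 714 CPM untreated and 3423, 1365, 1141 and 1034 CPM after caerulein, where the groups overlapped and 1 treated mouse was set apart from the others (adjusted p = 0.257).

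Genes of ducts and acinar-to-ductal metaplasia rose in 16 of 31 tested members and fell in 3, with a median of 1.72 (11 rose without untreated mouse 1). Besides Cldn4 these included keratins 8, 18 and 19, the intermediate filaments of simple epithelium. Krt8 rose from 73.6 and 74.7 CPM to 1286, 1382, 1699 and 899 CPM (log2 4.15 ± 0.37, adjusted p = 0.00137), though 26.9% of its 50-base words are shared with a pseudogene. Krt19, the classical duct keratin, rose from 12.8 and 9.16 CPM to 137, 207, 278 and 120 CPM (log2 4.08 ± 0.47, adjusted p = 0.00267), and Krt18 rose 9.95-fold. Treated mouse 3 was the highest and mouse 4 the lowest in each keratin. Anxa3 rose 6.09-fold. Mmp7 had no untreated count and 0.448 to 1.33 CPM after caerulein, at least 6.91-fold higher (adjusted p = 0.0178).

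The duct list did not move as 1 block. Sox9, the transcription factor of duct and progenitor cells, was at 5.34 and 5.81 CPM untreated and 4.35, 7.79, 6.39 and 3.81 CPM after caerulein (log2 0.00 ± 0.32, adjusted p = 0.997). Tff2, a mucus-stabilizing trefoil peptide, fell from 2721 and 1662 CPM to 410, 276, 430 and 170 CPM (log2 -2.77 ± 0.41, adjusted p = 0.00579). Agr2, an ER disulfide isomerase needed for mucin folding, fell from 2.67 and 5.89 CPM to 0.142 CPM or less (log2 -6.32 ± 0.87, adjusted p = 0.00467).

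**Figure D4:**
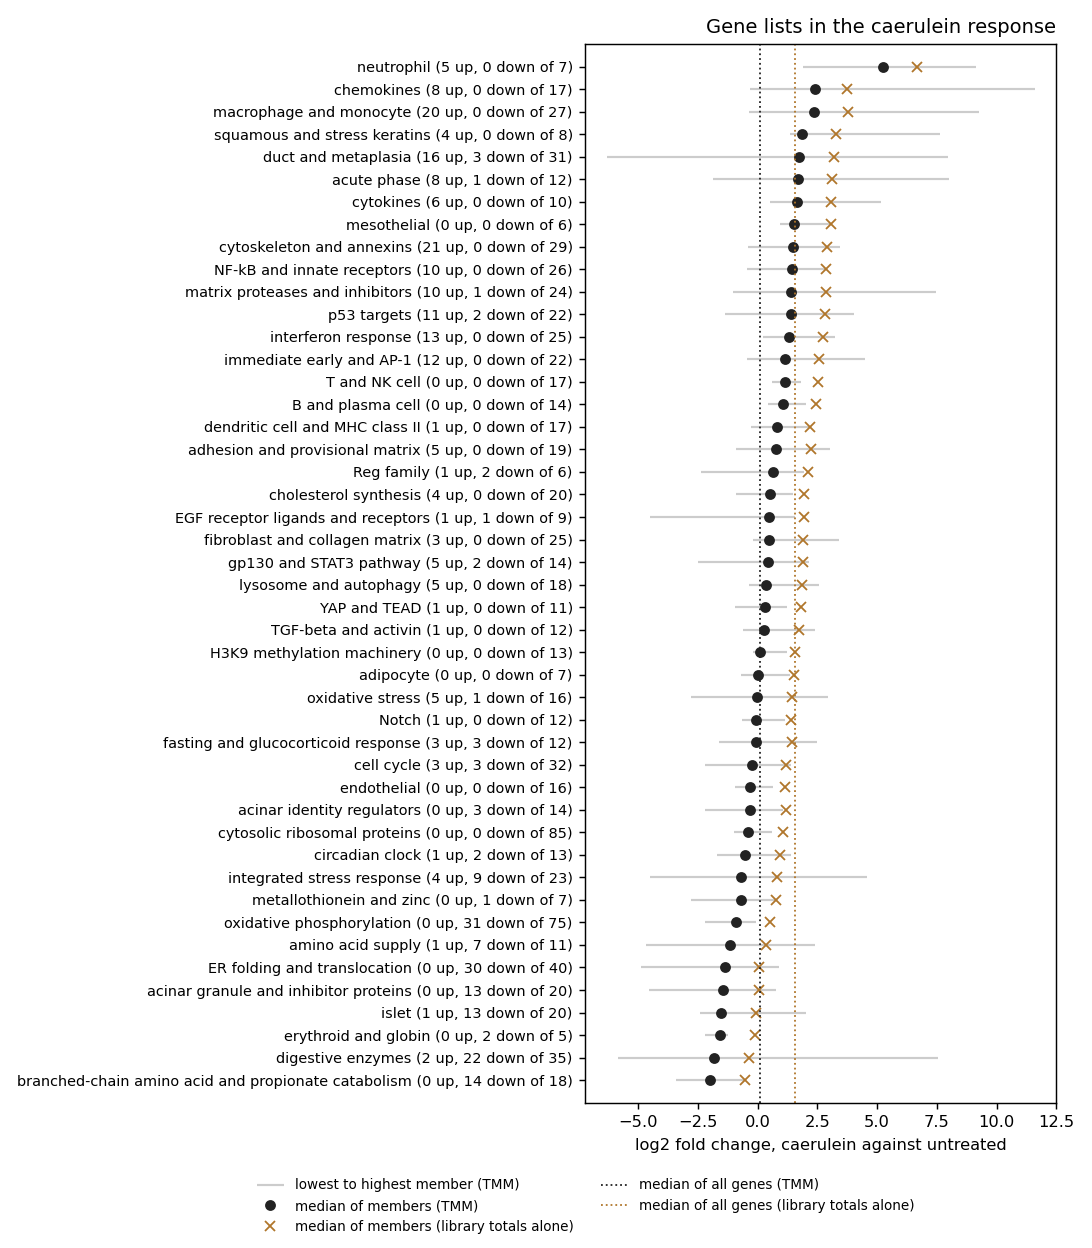
Log2 fold change of caerulein-treated against untreated mice for the gene lists, with each list's median (dot), its lowest to highest member (bar) and its median on library totals alone (cross); the numbers of members called higher and lower stand beside each name. The median of all genes was 0.08; 14 lists have a median below 0 here and above 0 on library totals alone, and none turns the other way.

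The cytoskeleton list was the one with the largest number of rising genes, 21 of 29 (median 1.48), but 7 without untreated mouse 1. Capg, an actin-capping protein, rose from 2.30 and 2.91 CPM to 24.8, 37.0, 30.8 and 20 CPM (log2 3.43 ± 0.34, adjusted p = 0.00176). Anxa2, a membrane scaffold, rose 6.95-fold, and the tropomyosins Tpm1 and Tpm4 rose 2.35-fold and 3.04-fold. Matrix proteases and their inhibitors rose in 10 of 24 genes (3 without untreated mouse 1), of which 5 had under 10 counts in each untreated library and so were kept by the filter through the treated group. Plau, the urokinase that activates plasmin, rose from 2.12 and 2.98 CPM to 12.0, 16.7, 13.5 and 8.67 CPM (log2 2.31 ± 0.33, adjusted p = 0.00542), and Mmp3 (stromelysin) rose 6.04-fold. Among squamous and stress keratin genes 4 of 8 rose (2 without untreated mouse 1).

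Fibroblast and collagen genes were called higher in only 3 of 25 members, and in none without untreated mouse 1. Col1a1, the main fibrillar collagen, was at 55.4 and 47.8 CPM untreated and 23.2, 152, 122 and 69.6 CPM after caerulein, so that treated mouse 1 lay below and the others above the untreated mice (adjusted p = 0.421). Fibronectin (Fn1) ordered the treated mice likewise, with 43.8 and 49.7 CPM against 24.8, 352, 182 and 91.2 CPM (adjusted p = 0.217). Acta2, the marker of activated stellate cells, was not called (log2 0.48 ± 0.38, adjusted p = 0.416). Of 19 adhesion genes 5 rose (1 without untreated mouse 1 and 3 without untreated mouse 2), among them the matrix receptor Cd44, which rose 6.56-fold with no overlap of groups (adjusted p = 0.0144). Of all genes 8.64% were called higher with every mouse kept, against these 3 of 25 fibroblast and 5 of 19 adhesion genes. With treated mice 1 and 4 left out, a choice made after seeing the data, 8 of 25 fibroblast and 8 of 19 adhesion genes were called higher. In that setting 1507 of all 13701 genes were called higher. Whether either list exceeded the share of all genes was not tested.

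Growth and fate pathways gave few calls. In the EGF receptor family Egf fell, as above, and Erbb2, which pairs with the receptor, was called higher (2.91-fold), but not without either untreated mouse (adjusted p up to 0.132). Egfr (9.68 and 10.7 CPM against 10.7 to 20.6 CPM) and its ligand Hbegf (1.11 and 0.522 CPM against 0.594 to 1.68 CPM) were not called. In the YAP, Notch and TGF-beta lists 1 gene each was called higher, of 11, 12 and 12 tested, which is near the 8.64% of all genes. They were Ccn1 (2.34-fold), Hes1 (2.21-fold) and Tgfbi (5.25-fold), targets of the respective pathways. Without treated mouse 1 the numbers called higher were 3 for YAP and 2 for TGF-beta. Tgfbi was not called without untreated mouse 1 (adjusted p = 0.235), Hes1 not without either untreated mouse or treated mouse 2 (adjusted p up to 0.188), and Ccn1 not without either untreated mouse or treated mouse 2 or 3 (adjusted p up to 0.237).

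Genes of macrophages and monocytes rose in 20 of 27 tested members and fell in none (median 2.37), and 10 rose without untreated mouse 1. Their summed level was 124 and 236 CPM in the untreated mice and 619, 965, 557 and 597 CPM in the treated mice. Ccr2, the receptor of Ccl2 on inflammatory monocytes, rose from 0.276 and 1.34 CPM to 11.7, 29.2, 19.4 and 8.77 CPM (log2 4.36 ± 0.77, adjusted p = 0.0101). Fcgr1, the high-affinity Fc receptor, rose 43.7-fold, and Cd14, the coreceptor of endotoxin, rose from 1.38 and 1.71 CPM to 14.2, 21.8, 16.3 and 15 CPM (log2 3.43 ± 0.29, adjusted p = 0.0012). The lysozyme Lyz2 rose 7.37-fold. Of other members, Mrc1 was at 5.62 and 9.76 CPM against 7.93 to 16.7 CPM (adjusted p = 0.189), and Csf1r at 11.1 and 26.4 CPM against 24.8 to 47.0 CPM (adjusted p = 0.158), and neither was called.

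**Figure D5:**
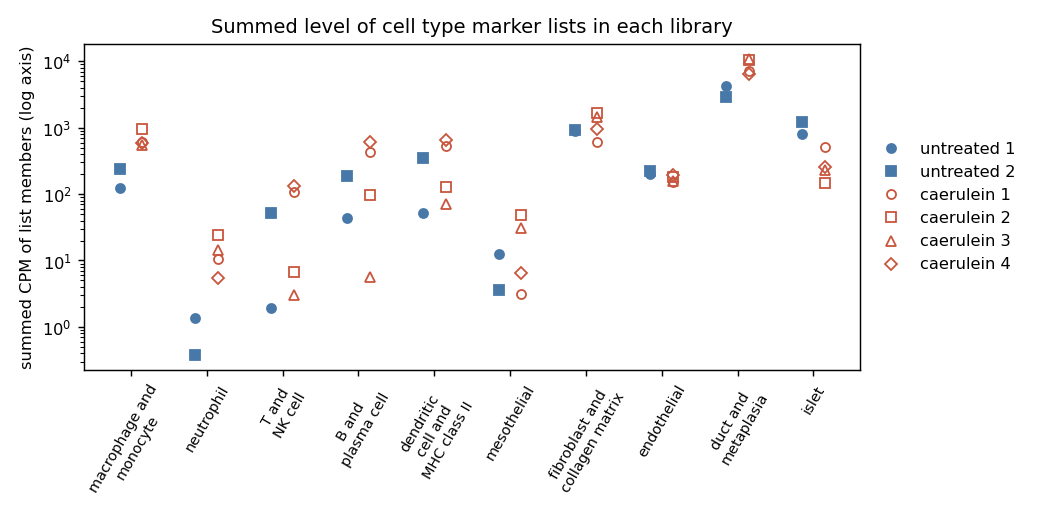
Summed TMM-normalized CPM (log axis) of the tested members of each cell type list in untreated mice 1 and 2 and caerulein-treated mice 1 to 4, each point being 1 mouse. Macrophage sums were 124 and 236 untreated and 557 to 965 after caerulein, whereas T and NK cell sums ranged from 1.94 to 51.3 untreated and 3.01 to 132 after caerulein.

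Neutrophil genes were near the detection limit. Only 7 of 18 were tested, all with under 10 counts in each untreated library, so that the filter kept them through the treated group, and 5 rose (1 without untreated mouse 1 and 2 without untreated mouse 2). Their sums were 1.38 and 0.373 CPM untreated and 10.4, 23.9, 14.3 and 5.42 CPM after caerulein. Retnlg, a resistin-like protein of neutrophils, had no untreated count and 0.95, 2.73, 2.65 and 1.08 CPM in the treated mice, at least 15.7-fold higher (adjusted p = 0.0124). Csf3r, the receptor of granulocyte colony-stimulating factor, had a ratio of 42.2 (interval 11.6 to 349), but its call was lost without either untreated mouse (adjusted p up to 0.128). The calprotectin genes S100a8 and S100a9, the most abundant transcripts of mature neutrophils, were at 0.305 to 2.14 and 0.102 to 3.21 CPM after caerulein and were not called.

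Lymphocyte genes differed among mice of both groups. None of 17 T and NK cell genes and none of 14 B and plasma cell genes was called in edgeR or DESeq2 or reached an unadjusted p under 0.05 in edgeR. Of 17 genes of dendritic cells and MHC class II the lectin Cd209a alone was called higher (4.39-fold), and not without untreated mouse 1 or treated mouse 2 (adjusted p up to 0.189). Cd3e, a chain of the T cell receptor complex, was at 0.553 and 3.3 CPM untreated and 4.2, 0.148, 0.101 and 7.19 CPM after caerulein. Cd79a, its counterpart in B cells, was at 0.461 and 11.2 CPM against 19.1, 2.06, 0.0809 and 26.3 CPM. For both, treated mice 1 and 4 were the highest of the 6 and treated mice 2 and 3 were below untreated mouse 2. B and plasma cell sums were 43.4 and 185 CPM untreated and 430, 96.3, 5.56 and 601 CPM treated, in the same order as the class II sums for all but the lowest values. The only tested mast cell gene, Kit, which other pancreatic cells also express, fell 2.84-fold.

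Islet genes fell in 13 of 20 tested members (8 without either untreated mouse), with a median of -1.53 (-0.10 on library totals alone). Gcg, the glucagon gene of alpha cells, fell from 106 and 102 CPM to 22.8, 14.5, 20.8 and 20.8 CPM (log2 -2.40 ± 0.21, adjusted p = 0.00137). Pcsk1, the convertase that processes proinsulin, fell 4.95-fold and Pcsk2 3.30-fold. Ins2, the main insulin gene, was at 415 and 613 CPM untreated and 266, 59.5, 101 and 118 CPM treated and was called lower (adjusted p = 0.0454), but not without either untreated mouse (adjusted p up to 0.184). The genes that fell included the hormones of alpha and beta cells and both convertases. None of 16 endothelial genes was called (median -0.31; sums 203 and 220 CPM against 154 to 197 CPM), nor any of 7 adipocyte and 6 mesothelial genes. At an unadjusted p under 0.05 there were 4 endothelial genes and none of the other lists, and DESeq2 called 1 mesothelial gene alone among them. The endothelial genes Kdr (log2 -0.95), Flt1 (log2 -0.63) and Tek (log2 -0.53) had an adjusted p under 0.1 but a change below 1. No listed gene of skeletal muscle or intestine was tested.

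Cell cycle genes gave 3 calls higher and 3 lower of 32, near the 8.64% and 9.54% of all genes, and none held without untreated mouse 1. The number lower was 0 without untreated mouse 2, 1 without treated mouse 2 or 3 and 5 without treated mouse 4. Mcm5 and Mcm6, parts of the helicase that opens DNA for replication, were called 2.07-fold and 2.00-fold higher, and Ube2c, which acts late in mitosis, 4.64-fold lower. The call on Mcm5 was lost without untreated mouse 1 (adjusted p = 0.14), that on Mcm6 without untreated mouse 1 or treated mouse 3 (adjusted p up to 0.113) and that on Ube2c without either untreated mouse (adjusted p up to 0.2). Mki67, the marker of cycling cells, was at 9.86 and 19.1 CPM untreated and 9.31, 2.37, 1.5 and 16.2 CPM treated, highest in untreated mouse 2 and treated mouse 4. The cyclin gene Ccnd1 was not called (16.2 and 19.4 CPM against 13.0 to 21.9 CPM).

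Of 18 lysosome and autophagy genes 5 were called higher and none lower (3 higher without either untreated mouse). Ctsl, which can inactivate trypsinogen, rose from 218 and 199 CPM to 1202, 1384, 1439.9 and 939.6 CPM (log2 2.58 ± 0.29, adjusted p = 0.00258), although 26.8% of its exon bases lie under other genes. Ctsb, which can activate trypsinogen, was called 2.34-fold higher, but not without either untreated mouse (adjusted p up to 0.105), and Ctsd was not called (236 and 196 CPM against 207 to 336 CPM). Of 20 genes of cholesterol synthesis 4 rose, with none without untreated mouse 1 and 2 without treated mouse 2.

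Genes of fasting and of the clock bear on the design, since only the treated mice were recorded as fasted and the hour of death is not given in the sources used here. Of 12 fasting and glucocorticoid genes 3 rose and 3 fell, but none fell without untreated mouse 1. Angptl4, an inhibitor of lipoprotein lipase induced by fasting, rose from 0.83 and 1.12 CPM to 4.30, 7.42, 5.22 and 5.11 CPM (log2 2.49 ± 0.33, adjusted p = 0.00418), and Fkbp5, a glucocorticoid target, was not called (log2 0.54 ± 0.20, adjusted p = 0.103). The clock output gene Dbp was at 13.3 and 0.894 CPM in untreated mice 1 and 2 and 2.42 to 3.27 CPM in the treated mice, and Arntl, which peaks opposite to it, at 2.76 and 9.16 CPM against 2.23 to 3.99 CPM. The untreated mice were thus farther from each other in these genes than the treated mice were. Neither gene was called, but the clock genes Per1 and Nr1d1 were called lower. Of 13 tested clock genes 1 was called higher and 2 lower, against 8.64% and 9.54% of all genes. Without treated mouse 1 or 3 the number lower was 1, and without treated mouse 2 or 3 none was higher. How far clock time moves other genes here was not tested.

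The treated mice were not ordered alike in rising and falling genes. Of the 1203 genes that rose, treated mouse 2 was the highest of the 4 in 46.88%, and treated mice 4 and 1 were the lowest in 38.15% and 34.41%. Of the 1328 that fell, treated mouse 4 was the lowest in 52.03%, and treated mice 1 and 3 were the highest in 35.92% and 33.51%. Among the 173 genes that rose by at least 3 on the log2 scale, mouse 2 was highest in 65.9%. Untreated mouse 2 was above untreated mouse 1 in 66.5% of genes that rose and 27.48% of genes that fell, against 52.16% of all genes.

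Levels in 2 further caerulein-treated Ehmt2+/+ mice with P48-Cre, which is expressed from the Ptf1a locus and so costs them 1 Ptf1a allele, were set beside those above without a test, since no untreated P48-Cre mice were analysed here. Cldn4 was at 53.9 and 65.0 CPM in these mice, Krt19 at 171 and 204 CPM and Ccl2 at 17.3 and 9.24 CPM. Derl3 was at 3.17 and 3.91 CPM and Egf at 3.82 and 5.51 CPM. Gm2663 was at 2347 and 2646 CPM. For Cldn4, Krt19, Derl3 and the 2 chemokines Ccl2 and Ccl7 (13.3 and 6.80 CPM) these lay near or within the range of the Pdx1-Cre treated mice, while Egf reached somewhat higher and Gm2663 lay above all 4. Saa3, at 4.82 and 1.08 CPM, was near the low treated mice 1 and 4.

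Whether a response differed from that of Pdx1-Cre mice with floxed Ehmt2 (Ehmt2fl/fl, 3 untreated and 2 treated) was tested as the interaction of genotype and caerulein, which passed for 1.23% of all genes. Among the genes named above it passed for 13, among them the acinar genes Bhlha15, Rbpjl, Nr5a2, Ptf1a and Xbp1, whose log2 fold changes were lower without Ehmt2. The values here come from the model of 4 groups. Nr5a2 had a log2 fold change of -0.16 with Ehmt2 and -2.04 without (difference -1.88 ± 0.20, adjusted p = 0.00592), and Rbpjl one of -1.61 against -4.39 (difference -2.78 ± 0.28, adjusted p = 0.00592). Mrc1 had 0.75 against 3.12 (difference 2.38 ± 0.42, adjusted p = 0.0397). With Ehmt2 present, Ptf1a (0.51), Xbp1 (0.50) and Nr5a2 were not called.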

How the data were processed

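Whole pancreas RNA (poly(A)-selected, TruSeq RNA v2, which does not mark strand) was sequenced by the authors, mapped to GRCm38.p6 with MapRSeq and compared with edgeR 3.28.1. The deposited tables hold raw read counts per gene, used here as they stand. Their RPKM, log2 and p-value columns hold normalized levels and the authors' own comparisons and were not used. Library totals are sums over the 13927 genes listed. The table had no genes that filterByExpr would remove, so the filter behind it is that of the deposit, and its rule is not given in the sources used here. Groups came from the labels, and replicate numbers follow the accession order.

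Counts were tested in R 4.3.3 with edgeR 4.0.16 (TMM, filterByExpr, quasi-likelihood F-test) on the 6 libraries, with Benjamini-Hochberg adjustment over 13927 genes. A gene was called at an adjusted p under 0.1 and an absolute log2 fold change of at least 1. The SE is the log2 fold change over the square root of F. No source names litters or cohorts, so p-values measure the spread between these mice. Counting intervals are exact at 95%, a floor stands for 3 counts over a group, and neither covers more than counting error. No libraries were duplicates of each other (median squared deviation over the Poisson value 2.95 or more). Levels in P48-Cre mice were scaled together with the 6 libraries, and the interaction was a contrast over 11 libraries of 4 groups. Positions are from GENCODE vM21 on GRCm38.

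Members and gene lists were chosen with earlier results of these data known. Named genes were Ehmt2, the 10 largest rises and falls with a group mean of at least 10 CPM, the members that define each list, and of each list up to 4 with the lowest adjusted p and at least 1 not called. Among the largest changes, groups had to be without overlap, and clone or gene-model symbols were left out. The text names a subset. Alternatives were RLE factors, library totals, TMM without enzymes and mitochondrial genes, no filter, DESeq2 1.42.0, an FDR of 0.05, a model of 4 groups and each library left out. Leaving out genes that collect ribosomal RNA, or treated mice 1 and 4 or 2 and 3, was added after seeing the data. The code was tested on simulated data. Tables and figures used Python 3.11.15, pandas 2.3.3, numpy 2.4.6, scipy 1.17.1 and matplotlib 3.10.9.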

Additional observations from a re-analysis of the deposited data

Results flagged for a closer look

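In the group of 4 treated mice, 1 mouse lay apart from the others in 4 of 148 named genes by Dixon's criterion. The criterion is the gap to the nearest mouse over the range, above its 95% critical value, which chance meets in about 1 in 20 independent groups. The named genes share the same 4 mice, and many were named for a low adjusted p or for groups without overlap. The number therefore cannot be set against that rate. Treated mouse 4 was low in the amylase gene Amy2a5 (ratio 0.88) and high in Arntl (0.861) and Xist (0.885). Treated mouse 1 was high in Reg3b (0.862).

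The response differed between Ehmt2+/+ and Ehmt2fl/fl mice in 13 of the named genes (edgeR interaction, adjusted p under 0.1), where values are the log2 fold change without Ehmt2 minus that with it. Among acinar genes it was -3.227 for Bhlha15, -2.779 for Rbpjl, -1.881 for Nr5a2, -1.785 for Ptf1a, -1.488 for Xbp1, -3.142 for Cckar and -1.771 for Gatm. Among genes that rose with Ehmt2 it was -6.786 for 1810009J06Rik, -5.311 for Gm2663, -1.944 for Pigr, -1.865 for Phlda3 and -1.726 for Ctsl. Mrc1 alone had a positive value, 2.376. Untreated Ehmt2fl/fl mice already held 88.4 to 227 CPM of Gm2663 and 97.7 to 592 CPM of 1810009J06Rik, against 4.4 to 11.5 and 2.40 to 4.62 CPM in untreated Ehmt2+/+ mice. No explanation was tested for these values.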

How the results depend on the processing

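The calls depended most on the scaling and on untreated mouse 1. On library totals alone 10342 genes passed (10188 higher, 154 lower), with 552 list members higher and 36 lower against 192 and 167. Ehmt2 then stood 1.56 higher on the log2 scale and passed. Median log2 changes of lists turned from below 0 to 0.033 (granule proteins), 0.0472 (ER folding), 0.80 (integrated stress response), 0.33 (amino acid supply), 0.53 (oxidative phosphorylation), 0.76 (metallothionein and zinc) and 0.94 (circadian clock). Of 7 further lists medians between -0.39 and -0.02 turned to between 1.07 and 1.44. The changes of genes turned to 1.43 (Canx), 0.10 (Cckar), 1.42 (Ccnd1), 0.28 (Ctrb1), 0.21 (Lifr) and 1.30 (Nr5a2). This setting leaves the falling enzyme share uncorrected by construction. With each library left out in turn, 1412 to 2601 genes passed (546 to 1343 higher, 866 to 1308 lower), with 93 to 212 list members higher and 119 to 168 lower, the lowest of each without untreated mouse 1. Over these fits the median of the circadian clock list ran from -1.01 to 0.17, that of dendritic cell and MHC class II genes from -0.0103 to 3.09 and the change of Dbp from -2.18 to 1.71. Without treated mice 1 and 4 the dendritic cell median was -0.99. The cause was not tested.

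Of 147 named genes besides Ehmt2, 145 kept their direction and side of the threshold with RLE size factors, 146 with TMM factors computed without digestive enzyme and mitochondrial genes, 147 without an expression filter (which removed none of the 13927 genes that the deposited table lists), 143 in DESeq2, 145 at an FDR under 0.05 and 146 without the genes that collect ribosomal RNA. The model of 4 groups held 144 of them and kept 141. Without untreated mouse 1 and 2, 18 and 12 calls were lost. The interaction passed for 13 named genes in edgeR and 38 in DESeq2. No paired analysis was possible because replicate numbers in the labels do not pair mice across groups. Depth limits the 859 genes under 10 counts in both untreated libraries, of which 304 were called higher.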

Other observations

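Some members of the lists moved against the name of their list. Pim3, a kinase downstream of STAT3, fell 5.67-fold and Lifr, the receptor of Lif, 2.40-fold, while Socs3 and Osmr rose. Lifr lay 0.21 higher on library totals alone. Bcat1, the first enzyme of branched-chain amino acid breakdown in dividing cells, was called 5.24-fold higher where 7 other genes of amino acid supply fell, though not without either untreated mouse (adjusted p up to 0.181). The zinc carrier Slc39a5, of acinar cells, fell 6.91-fold, and the metallothioneins Mt1 and Mt2 were not called. Pim3, Lifr and Bcat1 were picked here after their values were seen, from genes that the rule had named.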
